A study of Mus musculus with 15 samples.

Results

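The amino acid transporter genes of the mouse colon were followed in 15 RNA sequencing libraries, 5 from WMW-H mice, 5 from AOM/DSS mice and 5 from Control mice. A gene counted as a member if its symbol starts with Slc1a, Slc3a, Slc6a, Slc7a, Slc36a, Slc38a or Slc43a followed by a digit, which 64 of the 22063 genes in the table did. Of the 64, 63 belong to these transporter families by name, and the other is Slc7a6os, a separate gene that lies opposite Slc7a6 and carries its name. Levels are FPKM, fragments per kilobase of transcript at a common depth, so they can be compared between genes. The filter on low values, at least 1 FPKM in at least 5 libraries, was passed by 37 members, and 27 were too low to test.

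All mice were of the C57BL/6 strain with the WT genotype, and the labels give no age or sex. The WMW-H group received a treatment given by that name alone. The series title names Wumei Wan, a traditional Chinese herbal formula with matching initials, and the meaning of the letter H and the dose are not given. The AOM/DSS group is the colorectal cancer model, in which azoxymethane, a carcinogen, is combined with dextran sulfate sodium, which injures the colon lining, and the Control group is the blank control. The design text counts WMW-H, as a treatment, among the groups of a colorectal cancer study, but the labels of those samples do not state that they also received azoxymethane and dextran sulfate sodium. The labels do not say that the 5 libraries of a group came from separate mice, so p-values measure only the spread between these libraries, which may be technical.

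The samples are labelled as colon, with epithelial cells of the colon named as the cell type, and no step that isolates such cells is described. Summed over 13 colon epithelium genes, the libraries held 11920 to 12270 FPKM in WMW-H, 12110 to 12240 FPKM in AOM/DSS and 13710 to 13910 FPKM in Control, and all 13 genes were detected. Genes of other tissues were also present. The sum of 17 pancreatic acinar genes was 11990 to 12430 FPKM in WMW-H, 6992 to 7211 FPKM in AOM/DSS and 30880 to 31550 FPKM in Control, and none of the 17 was at 0. The sum of the male accessory gland list, 10 genes in the table, was 52.29 to 67.52 FPKM in WMW-H, 2689 to 2845 FPKM in AOM/DSS and 30.22 to 43.38 FPKM in Control. In bulk tissue, fewer cells of a type and less RNA per cell cannot be told apart. Depth was 16300000 to 21100000 fragments per library. Pearson correlations of log2(FPKM + 1) between libraries were 0.992 to 0.995 within groups, 0.959 to 0.963 between WMW-H and AOM/DSS, 0.969 to 0.972 between WMW-H and Control, and 0.939 to 0.942 between AOM/DSS and Control.

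Amino acids cross epithelial membranes through carriers of several solute carrier families. In an absorbing epithelial cell, carriers of the luminal brush border take amino acids up with sodium, chloride or protons, and exchangers of the basolateral membrane pass them on towards the blood. Some exchangers are pairs of proteins, in which a heavy chain (Slc3a1 or Slc3a2) brings a light chain of the Slc7 family to the membrane. Other members load cells with glutamine, export amino acids from lysosomes, where they are sensed by the growth kinase complex mTORC1, or carry related small molecules such as creatine and taurine. Tumour and immune cells are known to use several of them, among them Slc7a5, Slc7a11, Slc1a5 and Slc6a14. The series title names the kynurenine pathway of tryptophan breakdown, and tryptophan and kynurenine are both carried by the large neutral exchangers Slc7a5 and Slc7a8.

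In FPKM as deposited, the sum of the transporters was higher in every AOM/DSS library than in any other library, and their composition differed between groups. The 63 transporters summed to 659 to 705 FPKM in WMW-H, 744 to 765 FPKM in AOM/DSS and 687 to 707 FPKM in Control. Size factors, divisors that bring libraries to a common typical gene, were 0.983 to 1.006 in WMW-H. They were 1.0458 to 1.0531 in AOM/DSS and 0.9619 to 0.9676 in Control. The sums were not rescaled by them, so the higher sum in AOM/DSS may depend on the scaling. In Control libraries Slc6a14 ranked 1 among them, with 18.3% ± 0.512 of the sum (SD, n = 5), while in WMW-H it had 12.04% ± 0.694 and in AOM/DSS 6.66% ± 0.174. Slc38a6 had 13.4% ± 0.695 of the sum in WMW-H and 13.95% ± 0.531 in AOM/DSS, against 5.08% ± 0.235 in Control, where it ranked 8. The creatine transporter Slc6a8 had 13.8% ± 0.613 in WMW-H, 13.6% ± 0.173 in AOM/DSS and 9.63% ± 0.385 in Control. The 5 highest members of each group held 52.6% of the sum in WMW-H, 49.7% in AOM/DSS and 51.3% in Control.

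**Figure D1:**
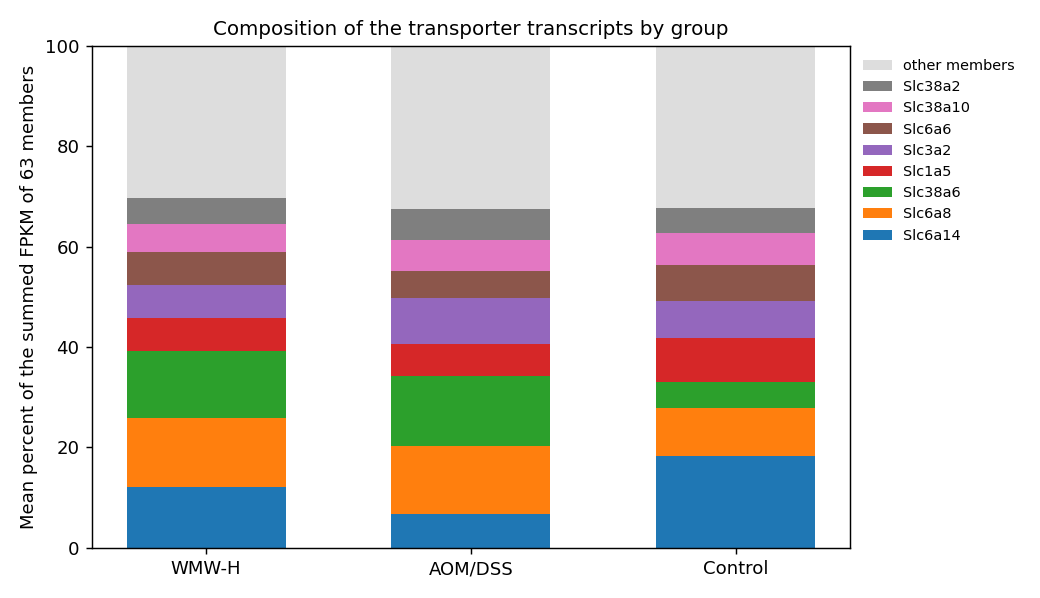
Mean share of the summed FPKM of the 63 transporters (percent, vertical axis) taken by 8 abundant members and by all other members, for WMW-H, AOM/DSS and Control (5 libraries each). Slc6a14 takes 12.04%, 6.66% and 18.3% of the bars in that order, and Slc38a6 takes 13.4%, 13.95% and 5.08%.

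Each comparison was tested with limma on log2(FPKM + 1) over all 12917 genes that passed the filter, and a gene was called at an adjusted p under 0.05. Log2 differences below are on that scale, where low genes change by less than their FPKM do, and are given ± SE. In AOM/DSS against Control, 18 of the 37 tested members were called higher and 12 lower, and 7 were not called. The background was high, since 66.1% of all tested genes were called, 45.5% higher and 20.6% lower. Libraries of the AOM/DSS and Control groups did not overlap for 25 members, against 52.9% of all genes. The median difference of the members was 0.09, that of all genes 0.12. That shift of all genes fell to 0.01 with size factors and to -0.01 with quantile normalization, and the members' split was then 16 higher and 14 lower, or 14 higher and 15 lower. Among all called genes, the share called higher was 68.9% as fitted, 51.4% with size factors and 48.0% with quantile normalization.

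In WMW-H against AOM/DSS, 7 members were called higher, 20 lower and 10 not called, where 66.8% of all tested genes were called, 25.9% higher and 40.9% lower. Their libraries did not overlap for 21 members, against 51.2% of all genes, and the median difference was -0.18 over the members and -0.07 over all genes. In WMW-H against Control, 9 members were called higher, 18 lower and 10 not called, where 59.5% of all tested genes were called, 35.4% higher and 24.1% lower. These libraries did not overlap for 18 members, against 42.3% of all genes, and the medians were -0.14 over the members and 0.05 over all genes. Differences of at least 2-fold on this scale were seen in 5 members in AOM/DSS against Control (6.07% of all genes), 1 in WMW-H against AOM/DSS (2.76%) and 3 in WMW-H against Control (2.62%). Scalings moved the split of all called genes here too, with the share called higher in WMW-H against AOM/DSS 38.8% as fitted and between 32.6% (TPM) and 49.4% (quantile), and in WMW-H against Control 59.5% as fitted and between 48.6% (quantile) and 59.1% (TPM). Every pair of these comparisons shares a group of libraries, so they are not independent of each other. Of the 37 tested members, 7 averaged under 1 FPKM in a group (Slc36a2, Slc38a11, Slc38a3, Slc38a4, Slc38a5, Slc6a20a and Slc7a11) and passed the filter through the others, so their direction is partly fixed by it.

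**Figure D2:**
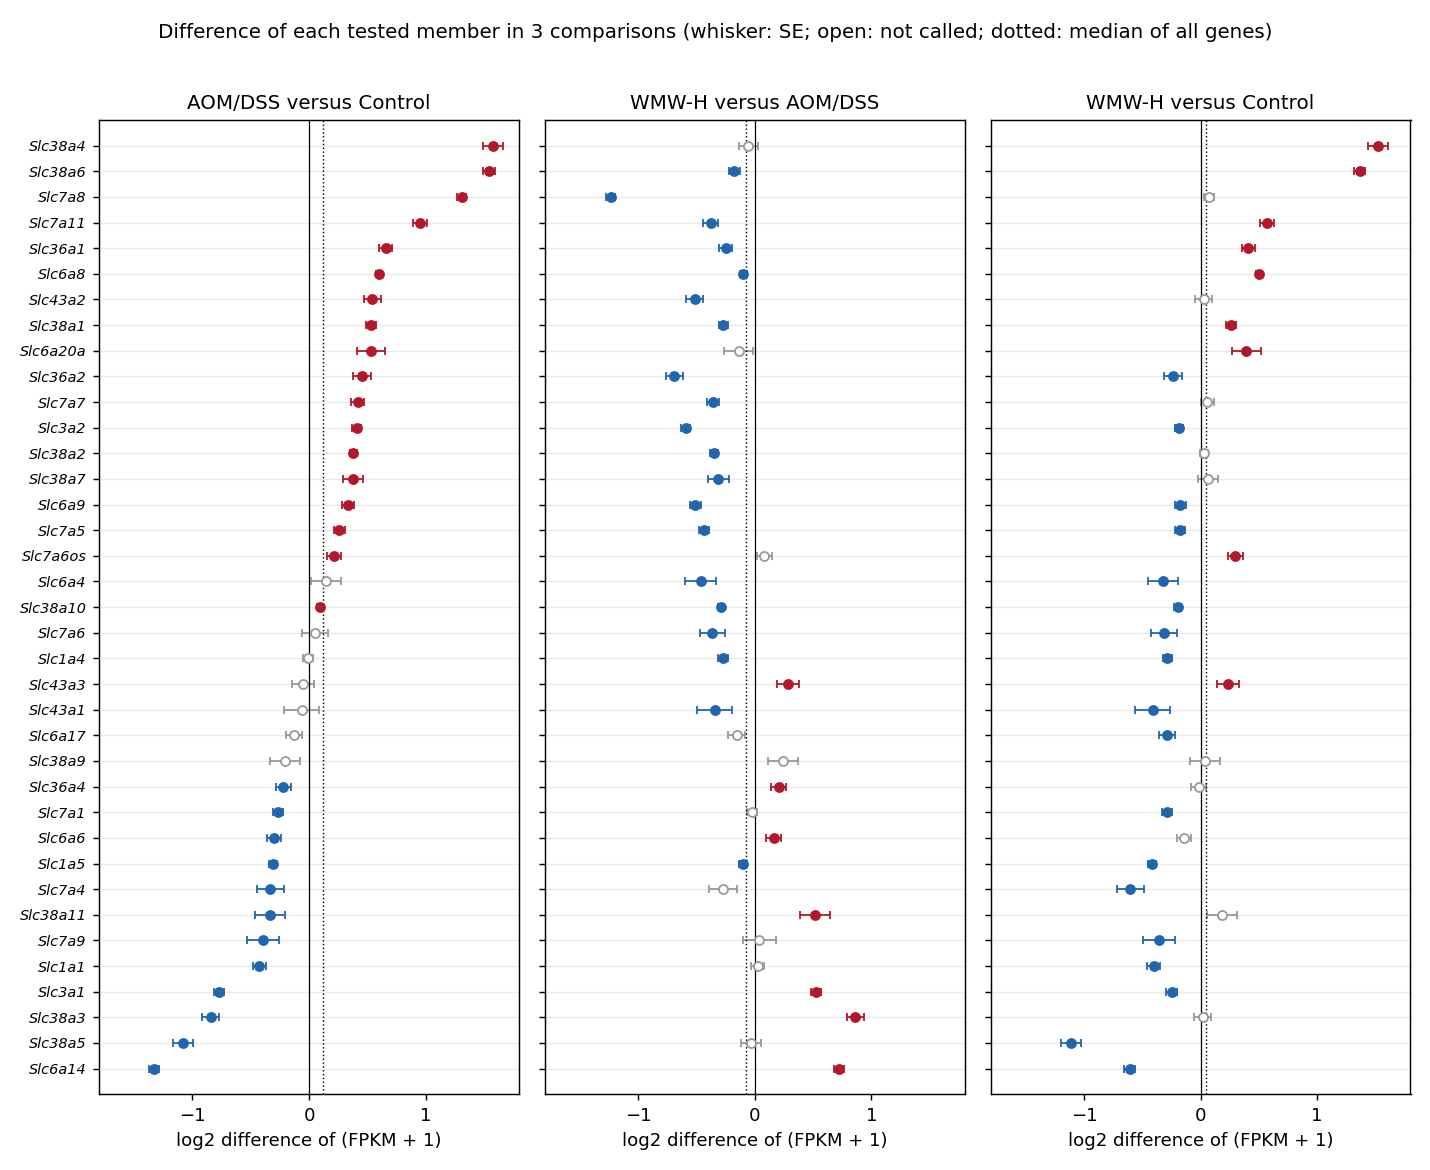
Difference in log2(FPKM + 1) ± SE of each of the 37 tested members (rows, ordered by the AOM/DSS versus Control difference) in AOM/DSS versus Control, WMW-H versus AOM/DSS and WMW-H versus Control. Red points were called higher, blue points lower and open points not called, and the dotted line is the median of all genes at 0.12, -0.07 and 0.05. Slc38a4, Slc38a6 and Slc7a8 lie at the top of the panel for AOM/DSS versus Control and Slc38a5 and Slc6a14 at the bottom.

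Promoter sequences of 3 members are printed because their differences in AOM/DSS against Control were the largest among the uptake carriers (Slc6a14) and the exchanger light chains (Slc7a8 and Slc7a11). They are RefSeq windows on GRCm38.p6 from 250 bases before to 50 bases after the annotated start, written 5′ to 3′ on the gene's strand, and such windows were found for 28 of the 37 tested members. Slc6a14 lies at chrX:21714650-21714949 on the plus strand, Slc7a8 at chr14:54781837-54782136 on the minus strand and Slc7a11 at chr3:50443564-50443863 on the minus strand. Capitals mark the amino acid response element core TGATGNAA, the motif class bound by the stress factor Atf4, read on both strands.
Slc6a14: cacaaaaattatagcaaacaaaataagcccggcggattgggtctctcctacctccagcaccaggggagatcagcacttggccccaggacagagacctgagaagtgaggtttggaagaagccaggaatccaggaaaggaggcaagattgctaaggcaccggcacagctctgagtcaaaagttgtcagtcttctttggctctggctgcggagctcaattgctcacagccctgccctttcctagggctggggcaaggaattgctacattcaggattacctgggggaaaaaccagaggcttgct
Slc7a8: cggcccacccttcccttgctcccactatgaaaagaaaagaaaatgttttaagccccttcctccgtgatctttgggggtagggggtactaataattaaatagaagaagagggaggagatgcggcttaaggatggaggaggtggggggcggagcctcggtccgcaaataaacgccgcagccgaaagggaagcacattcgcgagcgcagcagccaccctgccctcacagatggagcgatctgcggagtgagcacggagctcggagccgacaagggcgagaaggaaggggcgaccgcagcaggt
Slc7a11: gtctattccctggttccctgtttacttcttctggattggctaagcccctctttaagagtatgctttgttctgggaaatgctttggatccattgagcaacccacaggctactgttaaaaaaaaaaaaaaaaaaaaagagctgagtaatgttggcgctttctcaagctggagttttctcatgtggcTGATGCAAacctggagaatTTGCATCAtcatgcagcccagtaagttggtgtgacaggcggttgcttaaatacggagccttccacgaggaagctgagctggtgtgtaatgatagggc
The Slc7a11 window holds 2 such matches in opposite orientations, starting 66 and 47 bases before the annotated start, and the windows of Slc6a14 and Slc7a8 hold none. Of 32851 mouse promoter windows of this length, 3.97% hold at least 1 match. Counted by gene, as the members are, 4.51% of 27025 genes have a window with a match. Among the 28 members the motif is also in the windows of Slc1a4 and Slc7a7. The antioxidant response element core TGACNNNGC and the TCF/LEF core ATCAAAG, searched on both strands, were absent from these 3 windows. They occur in 12.39% and 3.73% of all windows. Counted by gene, they occur in 13.99% and 4.29% of all genes and in 6 and 3 of the 28 members. A match here is a run of letters, and no binding was measured.

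The brush-border carriers moved in both directions in AOM/DSS, and the most abundant of them was lower. Slc6a14 (ENSMUSG00000031089), which takes up neutral and cationic amino acids with sodium and chloride and is known from the colon, had 85.8, 89.1, 72.1, 85.1 and 84.5 FPKM in the WMW-H libraries, 49.5, 48.6, 49.8, 52.1 and 50.4 FPKM in the AOM/DSS libraries and 134, 131, 122, 126 and 124 FPKM in the Control libraries. The 3 groups did not overlap, with AOM/DSS lowest and WMW-H between it and Control in every library. The log2 difference of Slc6a14 was -1.33 ± 0.05 (adjusted p = 5.71e-14) in AOM/DSS against Control, 0.72 ± 0.05 (adjusted p = 4.48e-10) in WMW-H against AOM/DSS and -0.61 ± 0.05 (adjusted p = 5.27e-09) in WMW-H against Control by limma. Its level in AOM/DSS was 0.393 times that in Control, and its level in WMW-H was 1.66 times that in AOM/DSS. Replicate 3 of WMW-H stood below the other 4, and all 3 calls were kept without it.

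Slc3a1, the heavy chain that pairs with Slc7a9 for uptake of cystine and basic amino acids and is mutated in cystinuria, had 25.7, 24.8, 22.7, 24.7 and 25.3 FPKM in the WMW-H libraries, 17.5, 15.7, 16.5, 17.1 and 17.2 FPKM in the AOM/DSS libraries and 31.2, 27.7, 27.5, 31.7 and 29.1 FPKM in the Control libraries. It had the same order of groups as Slc6a14, with no overlap of AOM/DSS with either other group and none between WMW-H and Control. The differences were -0.77 ± 0.05 (adjusted p = 1.39e-10), 0.53 ± 0.05 (adjusted p = 2.99e-08) and -0.25 ± 0.05 (adjusted p = 0.000202) by limma, in the order AOM/DSS against Control, WMW-H against AOM/DSS and WMW-H against Control, an order kept in the sentences that follow. In the GENCODE M21 annotation 26.5% of the exonic bases of Slc3a1 also lie in Prepl on the opposite strand. Prepl averaged 14.4 FPKM in WMW-H, 15.6 FPKM in AOM/DSS and 16.4 FPKM in Control, and since the counting is not stated to use strand, reads of the shared part cannot be told apart. The sum of 14 small-intestinal enterocyte genes had the same order of groups. It was 266.2 to 287.1 FPKM in WMW-H, 199.7 to 209.3 FPKM in AOM/DSS and 329.2 to 351 FPKM in Control. None of the 14 was at 0 in all libraries, and 9 passed the filter. The sum of the 17 pancreatic acinar genes, given above, had that order too. The part of either tissue in the result was not tested.

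Slc7a9, the light chain of Slc3a1, was far lower than its partner. It had 2.94, 2.51, 1.28, 2.897 and 2.44 FPKM in the WMW-H libraries, 1.76, 2.39, 1.78, 2.45 and 3.095 FPKM in the AOM/DSS libraries and 3.33, 3.99, 3.396, 2.95 and 2.86 FPKM in the Control libraries. All groups overlapped, and the limma differences were -0.40 ± 0.14 (adjusted p = 0.0201), 0.04 ± 0.14 (adjusted p = 0.813) and -0.36 ± 0.14 (adjusted p = 0.0381). Both calls were fragile. The first rose to an adjusted p of 0.056 without AOM/DSS replicate 1, 0.0557 without AOM/DSS replicate 3 and 0.0545 without Control replicate 2. The WMW-H against Control call was lost at 0.103 without WMW-H replicate 3, 0.0531 without WMW-H replicate 5, and 0.0617, 0.0941 and 0.0663 without Control replicates 1, 2 and 3. Per kilobase, the ratio of Slc3a1 to Slc7a9 in a library was 8.51 to 17.8 in WMW-H, 5.55 to 9.92 in AOM/DSS and 6.94 to 10.7 in Control.

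Slc1a1, the epithelial carrier of glutamate and aspartate, had 6.42, 5.84, 5.63, 6.32 and 5.89 FPKM in the WMW-H libraries, 6.21, 6.51, 5.67, 5.85 and 5.297 FPKM in the AOM/DSS libraries and 8.304, 8.11, 8.48, 7.66 and 8.82 FPKM in the Control libraries. It was lower in both WMW-H and AOM/DSS than in any Control library, and WMW-H and AOM/DSS overlapped. The limma differences were -0.43 ± 0.05 (adjusted p = 2.98e-06), 0.02 ± 0.05 (adjusted p = 0.707) and -0.40 ± 0.05 (adjusted p = 8.18e-06). GENCODE M21 places 31.9% of its exonic bases opposite Spata6l, which averaged 0.771 FPKM in WMW-H, 0.316 FPKM in AOM/DSS and 0.625 FPKM in Control. The proline carrier Slc6a20a, by contrast, was higher in AOM/DSS, at 1.28 FPKM in WMW-H, 1.504 FPKM in AOM/DSS and 0.729 FPKM in Control, with limma differences of 0.53 (adjusted p = 0.00114), -0.14 (adjusted p = 0.334) and 0.39 (adjusted p = 0.0113). With a Control mean under 1 FPKM, its direction against Control was partly fixed by the filter. Slc6a17, a vesicular carrier of neutral amino acids described in neurons, averaged 1.77 FPKM in WMW-H, 2.095 FPKM in AOM/DSS and 2.38 FPKM in Control with limma differences of -0.13 (adjusted p = 0.116), -0.16 (adjusted p = 0.0578) and -0.28 (adjusted p = 0.00214). A call in AOM/DSS against Control was gained without AOM/DSS replicate 4 (0.0122), and in WMW-H against AOM/DSS without AOM/DSS replicate 2 (0.0452) or Control replicate 1 (0.0485, all adjusted p by limma). The first call was also gained with size factors (-0.21, adjusted p = 0.0154 by limma) and quantile normalization (-0.27, adjusted p = 0.00233). The second was also gained with TPM (-0.23, adjusted p = 0.0244) and with a total that leaves out pancreatic, gland and Paneth genes (-0.19, adjusted p = 0.0285). Slc6a19, the main neutral amino acid carrier of the small-intestinal brush border, was too low to test, at 0.486 FPKM in WMW-H, 0.275 FPKM in AOM/DSS and 0.420 FPKM in Control. Of the 8 tested genes on the uptake list, which holds Slc6a17 besides the brush-border carriers, 3 were called higher and 4 lower in AOM/DSS against Control, 2 higher and 2 lower in WMW-H against AOM/DSS, and 2 higher and 6 lower, Slc6a17 among them, in WMW-H against Control. In that order the shares higher and lower were 37.5% and 50%, 25% and 25%, and 25% and 75%. Over all tested genes they were 45.5% and 20.6%, 25.9% and 40.9%, and 35.4% and 24.1%. The uptake list also holds Slc36a1 and Slc36a2, described below, and shares Slc3a1 and Slc7a9 with the heteromeric exchangers. Counts of these lists are thus not independent of each other.

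The proton-coupled Slc36 carriers move small neutral amino acids out of the gut lumen or out of lysosomes. Slc36a1, found at both sites, had 12.5, 12.6, 11.6, 13.3 and 13.1 FPKM in the WMW-H libraries, 14.996, 15.6, 16.6, 13.8 and 14.9 FPKM in the AOM/DSS libraries and 9.24, 9.49, 10.2, 8.15 and 9.15 FPKM in the Control libraries. AOM/DSS was highest, WMW-H in between and Control lowest, with no overlap of any pair of groups. Slc36a1 differed by 0.66 ± 0.06 (adjusted p = 2.04e-08), -0.25 ± 0.06 (adjusted p = 0.001) and 0.41 ± 0.06 (adjusted p = 9.81e-06) (limma). Slc36a4, a high-affinity carrier of proline and tryptophan, had 3.03, 3.28, 3.49, 3.61 and 3.39 FPKM in the WMW-H libraries, 2.54, 3.15, 2.49, 2.53 and 3.25 FPKM in the AOM/DSS libraries and 3.604, 3.39, 3.37, 3.27 and 3.39 FPKM in the Control libraries. It was lower in AOM/DSS, below every Control library and partly overlapping WMW-H, with limma differences of -0.22 (adjusted p = 0.00647), 0.21 (adjusted p = 0.0103) and -0.02 (adjusted p = 0.848).

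Slc36a2, a glycine and proline carrier known from the kidney, had 1.007, 0.987, 0.830, 0.750 and 1.13 FPKM in the WMW-H libraries, 1.97, 2.199, 2.07, 2.15 and 2.22 FPKM in the AOM/DSS libraries and 1.11, 1.42, 1.58, 1.011 and 1.32 FPKM in the Control libraries. The AOM/DSS libraries were all above those of the other groups, and WMW-H and Control overlapped. Its limma differences were 0.45 ± 0.07 (adjusted p = 4.75e-05), -0.69 ± 0.07 (adjusted p = 4.35e-07) and -0.23 ± 0.07 (adjusted p = 0.0127). Its WMW-H mean lay under 1 FPKM, so its direction in the comparisons with WMW-H was partly fixed by the filter. All 9 tested male accessory gland genes moved the same way, higher in AOM/DSS than in Control and lower in WMW-H than in AOM/DSS, with the sums given above. Of that list, Sbp was at 0 in all libraries and Pate4 in all Control libraries, and the part of such tissue in the Slc36a2 result was not tested.

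**Figure D3:**
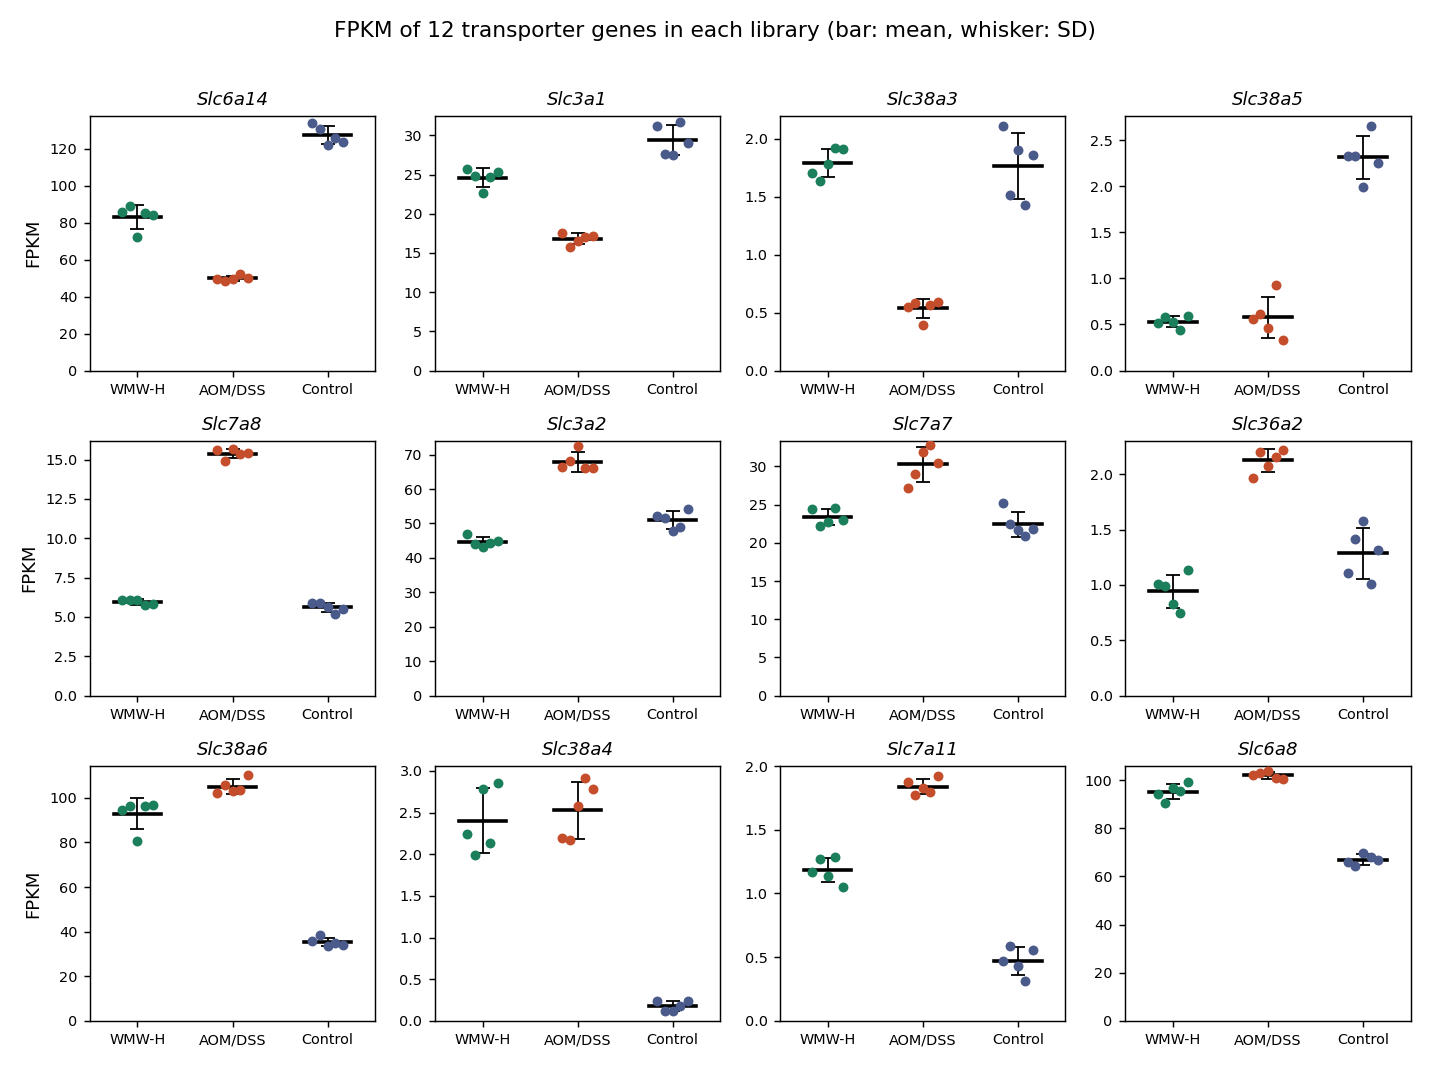
FPKM (vertical axes, each from 0) of 12 members in the 5 libraries of WMW-H, AOM/DSS and Control, with the mean as a bar and the SD as a whisker. In the upper row Control or WMW-H is highest (Slc6a14 lies between 122 and 134 FPKM in Control), in the middle row AOM/DSS is highest (Slc7a8 at 14.9 to 15.6 FPKM), and in the lower row WMW-H and AOM/DSS are both above Control.

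The Slc3a2 heavy chain and 4 of its 5 tested light chains (Slc7a5, Slc7a7, Slc7a8 and Slc7a11) were called higher in AOM/DSS than in Control and lower in WMW-H than in AOM/DSS. Of all tested genes, 45.5% were called higher in the first of these comparisons and 40.9% lower in the second. The count includes Slc7a11, whose direction against Control was fixed by the filter. It also includes Slc7a5, whose call in AOM/DSS against Control was lost with quantile normalization. Slc3a2, also called CD98, brings 6 of the measured light chains to the membrane and had 46.9, 44.1, 43.1, 44.3 and 44.8 FPKM in the WMW-H libraries, 66.3, 68.3, 72.5, 65.97 and 66.1 FPKM in the AOM/DSS libraries and 52.1, 51.7, 47.7, 48.9 and 54.2 FPKM in the Control libraries. The AOM/DSS libraries all lay above the Control libraries, and every WMW-H library lay below every Control library. The differences were 0.41 ± 0.04 (adjusted p = 3.96e-08), -0.59 ± 0.04 (adjusted p = 4.11e-10) and -0.19 ± 0.04 (adjusted p = 0.000375) by limma. The light chains Slc7a5, Slc7a6, Slc7a7, Slc7a8, Slc7a10 and Slc7a11 summed to 46.3 ± 1.99 FPKM in WMW-H, 69.0 ± 2.38 FPKM in AOM/DSS and 47.7 ± 2.09 FPKM in Control (SD, n = 5 each). The ratio of that sum to Slc3a2 in a library was 1.00 to 1.06 in WMW-H, 0.965 to 1.09 in AOM/DSS and 0.856 to 1.02 in Control, ranges that overlapped.

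**Figure D4:**
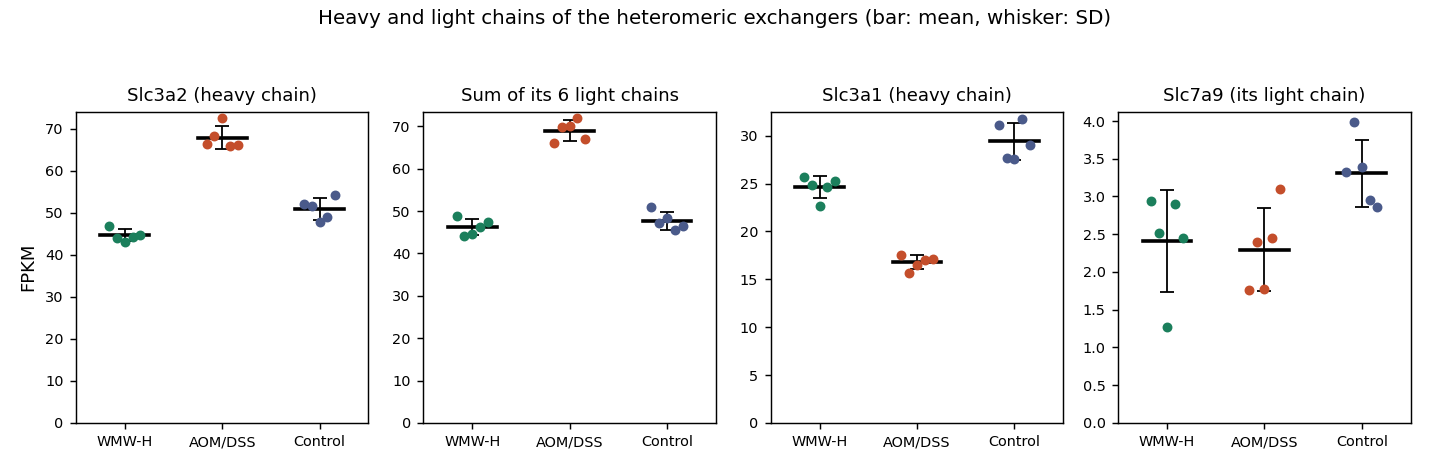
FPKM per library (points), mean (bar) and SD (whisker) of the heavy chain Slc3a2, the sum of its 6 light chains, the heavy chain Slc3a1 and its light chain Slc7a9, for WMW-H, AOM/DSS and Control. Slc3a2 averages 44.6, 67.8 and 50.9 FPKM and its light chains 46.3, 69.0 and 47.7 FPKM in that order, while Slc3a1 averages 24.6, 16.8 and 29.4 FPKM and Slc7a9 2.41, 2.30 and 3.31 FPKM.

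Within that sum the light chains did not share 1 pattern. Slc7a8, a basolateral exchanger of neutral amino acids whose promoter is printed above, had 6.09, 6.06, 6.09, 5.74 and 5.82 FPKM in the WMW-H libraries, 15.6, 14.9, 15.6, 15.3 and 15.4 FPKM in the AOM/DSS libraries and 5.87, 5.90, 5.63, 5.22 and 5.503 FPKM in the Control libraries. AOM/DSS stood apart from both other groups, which overlapped. Slc7a8 differed by 1.31 ± 0.04 (adjusted p = 1.19e-14), -1.24 ± 0.04 (adjusted p = 7.96e-14) and 0.07 ± 0.04 (adjusted p = 0.13) by limma, 2.73 times the Control level in AOM/DSS and, in WMW-H, 0.387 times the AOM/DSS level. It was the only member to change by 2-fold or more on this scale in WMW-H against AOM/DSS. In mean FPKM, WMW-H held 3.34 times the AOM/DSS level of Slc38a3, 2.01 times that of Slc38a11 and 0.443 times that of Slc36a2. Each of these averaged under 1 FPKM in WMW-H or AOM/DSS. The male accessory gland genes moved in the same way, and their part in the Slc7a8 result was not tested.

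Slc7a11, which exchanges cystine for glutamate and feeds glutathione synthesis, had 1.17, 1.27, 1.14, 1.29 and 1.05 FPKM in the WMW-H libraries, 1.87, 1.77, 1.82, 1.79 and 1.92 FPKM in the AOM/DSS libraries and 0.472, 0.591, 0.429, 0.313 and 0.556 FPKM in the Control libraries. The groups did not overlap, with AOM/DSS highest, WMW-H between and Control lowest. The differences of Slc7a11 were 0.95 ± 0.06 (adjusted p = 4.92e-10), -0.38 ± 0.06 (adjusted p = 4.38e-05) and 0.57 ± 0.06 (adjusted p = 5.86e-07) by limma, and its AOM/DSS level was 3.89 times that in Control. Slc7a11 passed the filter through WMW-H and AOM/DSS, so the filter fixed its direction against Control. Slc7a7, which exports cationic amino acids in exchange for neutral ones and is mutated in lysinuric protein intolerance, had 24.4, 22.1, 22.7, 24.5 and 22.97 FPKM in the WMW-H libraries, 27.2, 28.97, 31.9, 32.7 and 30.4 FPKM in the AOM/DSS libraries and 25.2, 22.4, 21.7, 20.9 and 21.8 FPKM in the Control libraries. Only the AOM/DSS libraries were set apart, and the limma differences were 0.42 ± 0.05 (adjusted p = 3.11e-06), -0.36 ± 0.05 (adjusted p = 1.73e-05) and 0.06 ± 0.05 (adjusted p = 0.363). Slc7a7 is also expressed by macrophages, whose 9 marker genes summed to 305.8 to 336.3 FPKM in WMW-H, 361.6 to 387.9 FPKM in AOM/DSS and 212.6 to 228.7 FPKM in Control, with none at 0, and their part in the result was not tested. An overlap of 7.0% of its exonic bases with Oxa1l on the opposite strand also leaves some of its reads ambiguous.

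Slc7a5, the exchanger of large neutral amino acids that is often raised in tumours, averaged 9.498 ± 0.5299 FPKM in WMW-H, 13.2 ± 0.6705 FPKM in AOM/DSS and 10.8 ± 0.377 FPKM in Control (SD, n = 5 each). The AOM/DSS libraries lay above all others, and WMW-H lay below Control. The limma differences were 0.26 ± 0.04 (adjusted p = 7e-05), -0.43 ± 0.04 (adjusted p = 2.07e-07) and -0.17 ± 0.04 (adjusted p = 0.00285), and the first lost its call with quantile normalization (0.10, adjusted p = 0.0505 by limma). Slc7a6, a close relative of Slc7a7, averaged 5.79 FPKM in WMW-H, 7.67 FPKM in AOM/DSS and 7.36 FPKM in Control, with overlapping groups and limma differences of 0.05 (adjusted p = 0.721), -0.36 (adjusted p = 0.00827) and -0.32 (adjusted p = 0.0216). Its call in WMW-H against Control was lost without WMW-H replicate 2 (0.0624), WMW-H replicate 4 (0.0609) or Control replicate 3 (0.0582, all adjusted p by limma). The opposite gene Slc7a6os, no transporter, averaged 11.7 FPKM in WMW-H, 10.96 FPKM in AOM/DSS and 9.32 FPKM in Control and was called higher in AOM/DSS against Control (0.22, adjusted p = 0.00504, limma) and in WMW-H against Control (0.30, adjusted p = 0.00048). The first of these calls was lost with size factors (0.11, adjusted p = 0.138 by limma) and with quantile normalization (0.05, adjusted p = 0.473). A call higher in WMW-H against AOM/DSS was gained with size factors (0.15, adjusted p = 0.044 by limma) and with quantile normalization (0.18, adjusted p = 0.0142). Slc7a10, a carrier of small neutral amino acids, stayed below the filter at 0.464 FPKM in WMW-H, 0.693 FPKM in AOM/DSS and 1.006 FPKM in Control. Of the 8 tested heavy chains and heteromeric exchangers, 5 were called higher and 2 lower in AOM/DSS against Control, 1 higher and 6 lower in WMW-H against AOM/DSS, and 1 higher and 5 lower in WMW-H against Control. In that order the shares higher and lower were 62.5% and 25%, 12.5% and 75%, and 12.5% and 62.5%. Over all tested genes they were 45.5% and 20.6%, 25.9% and 40.9%, and 35.4% and 24.1%.

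Slc1a5 and Slc1a4, the neutral amino acid carriers of the Slc1 family, were called lower in WMW-H against both other groups. Over all tested genes, 40.9% were called lower in WMW-H against AOM/DSS and 24.1% in WMW-H against Control. Slc1a5, a glutamine carrier used by many proliferating cells, had 45.6, 49.1, 42.8, 45.03 and 45.5 FPKM in the WMW-H libraries, 51.1, 49.8, 49.95, 46.2 and 47.7 FPKM in the AOM/DSS libraries and 61.4, 62.4, 60.3, 60.6 and 60.2 FPKM in the Control libraries. Every Control library was above every other, and WMW-H and AOM/DSS overlapped. Slc1a5 differed by -0.31 ± 0.03 (adjusted p = 4.54e-07), -0.10 ± 0.03 (adjusted p = 0.0167) and -0.41 ± 0.03 (adjusted p = 2.31e-08) by limma, and the WMW-H against AOM/DSS call was lost with size factors (-0.03, adjusted p = 0.399 by limma) and with quantile normalization (-0.03, adjusted p = 0.49 by limma). Slc1a4, which carries alanine, serine and cysteine, had 21.7, 18.9, 18.2, 19.1 and 20.2 FPKM in the WMW-H libraries, 22.6, 24.5, 23.4, 24.6 and 24.3 FPKM in the AOM/DSS libraries and 24.2, 25.005, 23.9, 23.6 and 23.7 FPKM in the Control libraries. Here the WMW-H libraries stood below both other groups, which overlapped, with limma differences of -0.01 ± 0.04 (adjusted p = 0.856), -0.27 ± 0.04 (adjusted p = 2.2e-05) and -0.28 ± 0.04 (adjusted p = 2.04e-05). In AOM/DSS against Control, Slc1a4 was called lower with size factors (-0.13, adjusted p = 0.0115 by limma) and with quantile normalization (-0.14, adjusted p = 0.0053).

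Of the 5 genes of the cationic amino acid transporter group, Slc7a1 and Slc7a4 passed the filter, and both were called lower in WMW-H and in AOM/DSS than in Control. Over all tested genes, 24.1% were called lower in WMW-H and 20.6% in AOM/DSS against Control. Slc7a1, a widely expressed arginine and lysine carrier, had 9.70, 9.86, 8.73, 9.77 and 9.65 FPKM in the WMW-H libraries, 9.61, 9.27, 10.2, 9.602 and 9.85 FPKM in the AOM/DSS libraries and 11.6, 11.4, 11.7, 12.02 and 12.6 FPKM in the Control libraries. The Control libraries were highest without exception, and the other groups overlapped. Slc7a1 differed by -0.27 ± 0.04 (adjusted p = 3.04e-05), -0.02 ± 0.04 (adjusted p = 0.658) and -0.29 ± 0.04 (adjusted p = 1.73e-05) by limma. Slc7a4, a related protein for which amino acid transport has not been established, had 9.02, 7.08, 5.45, 7.57 and 7.17 FPKM in the WMW-H libraries, 6.96, 9.33, 10.4, 10.2 and 7.88 FPKM in the AOM/DSS libraries and 11.98, 13.1, 9.71, 12.4 and 10.2 FPKM in the Control libraries. WMW-H lay below Control throughout, and AOM/DSS overlapped both. The limma differences of Slc7a4 were -0.33 ± 0.12 (adjusted p = 0.0203), -0.27 ± 0.12 (adjusted p = 0.0507) and -0.60 ± 0.12 (adjusted p = 0.000313). The first was lost without AOM/DSS replicate 1 (adjusted p = 0.0634 by limma), AOM/DSS replicate 5 (0.0517) or Control replicate 2 (0.0546). The second was gained without WMW-H replicate 1 (0.0159), AOM/DSS replicates 1 or 5 (0.0139 and 0.0401) or Control replicate 3 (0.0477, all adjusted p by limma). In GENCODE M21, P2rx6 shares 13.3% of the exonic bases of Slc7a4 on the opposite strand. The arginine carrier Slc7a2, known from activated macrophages, was untested at 0.6496 FPKM in WMW-H, 0.698 FPKM in AOM/DSS and 0.393 FPKM in Control, with every WMW-H and AOM/DSS library above every Control library.

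The Slc38 family, sodium-coupled carriers of glutamine and other small neutral amino acids, held the largest increases of any tested member in both comparisons with Control. The largest was that of Slc38a4, whose direction against Control was fixed by the filter, and the next that of Slc38a6. Slc38a6, whose substrates are less well defined, had 94.4, 96.1, 80.5, 96.5 and 96.8 FPKM in the WMW-H libraries, 102, 106, 103, 104 and 110.4 FPKM in the AOM/DSS libraries and 35.6, 38.3, 33.5, 35.1 and 34.2 FPKM in the Control libraries. Control libraries lay far below both other groups, and WMW-H lay below AOM/DSS without overlap. The differences were 1.54 ± 0.05 (adjusted p = 1.51e-14), -0.18 ± 0.05 (adjusted p = 0.00355) and 1.37 ± 0.05 (adjusted p = 2.37e-13) by limma, with levels 2.97 times Control in AOM/DSS and 2.63 times Control in WMW-H. Slc38a4, a carrier known from liver and placenta and imprinted in the mouse, had 2.24, 1.995, 2.79, 2.14 and 2.85 FPKM in the WMW-H libraries, 2.19, 2.17, 2.58, 2.92 and 2.78 FPKM in the AOM/DSS libraries and 0.243, 0.117, 0.114, 0.182 and 0.238 FPKM in the Control libraries. WMW-H and AOM/DSS overlapped, and both were above the low Control values in every library. The limma differences were 1.58 ± 0.08 (adjusted p = 3.55e-11), -0.05 ± 0.08 (adjusted p = 0.59) and 1.52 ± 0.08 (adjusted p = 1.24e-10). Its mean FPKM was 14.1 times Control in AOM/DSS and 13.4 times Control in WMW-H. Slc38a4 passed the filter through those groups alone, so the filter fixed its direction against Control.

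The system N carriers Slc38a3 and Slc38a5, which exchange glutamine with sodium and protons, were both called lower in AOM/DSS against Control, while in WMW-H against Control Slc38a5 was called lower and Slc38a3 was not called. Slc38a3 had 1.703, 1.64, 1.79, 1.92 and 1.91 FPKM in the WMW-H libraries, 0.552, 0.582, 0.390, 0.565 and 0.594 FPKM in the AOM/DSS libraries and 2.11, 1.51, 1.91, 1.43 and 1.86 FPKM in the Control libraries. Only AOM/DSS was low, and WMW-H and Control overlapped. Slc38a3 differed by -0.84 ± 0.07 (adjusted p = 2.24e-08), 0.86 ± 0.07 (adjusted p = 2.11e-08) and 0.02 ± 0.07 (adjusted p = 0.839) by limma. Slc38a5 had 0.512, 0.583, 0.523, 0.444 and 0.588 FPKM in the WMW-H libraries, 0.557, 0.609, 0.458, 0.932 and 0.331 FPKM in the AOM/DSS libraries and 2.33, 2.33, 1.997, 2.65 and 2.26 FPKM in the Control libraries. Here WMW-H and AOM/DSS overlapped and both were below every Control library, with limma differences of -1.08 ± 0.09 (adjusted p = 7.4e-09), -0.03 ± 0.09 (adjusted p = 0.745) and -1.11 ± 0.09 (adjusted p = 9.13e-09). Slc38a5 passed the filter through Control alone, so the filter fixed its direction against Control. Slc38a3 passed it through WMW-H and Control, so its direction against AOM/DSS was fixed in the same way. Slc38a5 and Slc38a3 are also expressed in the pancreas, and the 17 acinar genes were called lower in AOM/DSS against Control (17 of 17) and in WMW-H against Control (16 of 17) and higher in WMW-H against AOM/DSS (17 of 17). The part of pancreatic tissue in the 2 results was not tested.

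Slc38a1 and Slc38a2, the widely expressed system A carriers, were higher in AOM/DSS. Slc38a2, known to be induced when cells lack amino acids, averaged 36.4 ± 1.47 FPKM in WMW-H, 46.7 ± 1.54 FPKM in AOM/DSS and 35.7 ± 0.687 FPKM in Control (SD, n = 5 each), and Slc38a1 averaged 14.6 ± 0.527 FPKM in WMW-H, 17.8 ± 0.877 FPKM in AOM/DSS and 12.04 ± 0.454 FPKM in Control. No AOM/DSS library overlapped the other groups for either gene. Slc38a2 differed by 0.38 ± 0.03 (adjusted p = 1.34e-08), -0.35 ± 0.03 (adjusted p = 4.53e-08) and 0.03 ± 0.03 (adjusted p = 0.45), and Slc38a1 by 0.53 ± 0.04 (adjusted p = 3.51e-09), -0.27 ± 0.04 (adjusted p = 1.58e-05) and 0.26 ± 0.04 (adjusted p = 2.85e-05) (limma). Slc38a10 had 36.6, 38.3, 39.6, 38.4 and 35.7 FPKM in the WMW-H libraries, 47.6, 46.6, 46.4, 45.6 and 45.3 FPKM in the AOM/DSS libraries and 43.1, 43.1, 44.1, 43.7 and 42.7 FPKM in the Control libraries. WMW-H was lowest and AOM/DSS highest with no overlap, and the differences were 0.09 ± 0.03 (adjusted p = 0.00802), -0.29 ± 0.03 (adjusted p = 1.2e-07) and -0.20 ± 0.03 (adjusted p = 1.58e-05) by limma. The first was below the shift of all genes and turned to -0.02 with size factors and with quantile normalization. Of the lysosomal members, Slc38a7 averaged 7.94 FPKM in WMW-H, 10.1 FPKM in AOM/DSS and 7.59 FPKM in Control and was called higher in AOM/DSS against Control (0.38, adjusted p = 0.00126, limma; 0.0559 with quantile normalization), and lower in WMW-H against AOM/DSS (-0.31, adjusted p = 0.00495). Slc38a9, the arginine sensor that signals to mTORC1, averaged 1.55 FPKM in WMW-H, 1.13 FPKM in AOM/DSS and 1.49 FPKM in Control and was not called in any comparison, though without WMW-H replicate 3 it was called higher in WMW-H against AOM/DSS (0.31, adjusted p = 0.043 by limma) and with quantile normalization lower in AOM/DSS against Control (-0.33, adjusted p = 0.0335).

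Slc38a11, little studied, had 2.44, 1.51, 1.04, 1.28 and 1.57 FPKM in the WMW-H libraries, 0.422, 0.950, 0.849, 0.640 and 1.04 FPKM in the AOM/DSS libraries and 1.26, 1.47, 1.19, 0.860 and 1.40 FPKM in the Control libraries. The lowest WMW-H library cleared the highest AOM/DSS library only beyond the digits shown, and Control overlapped both. The limma differences were -0.33 ± 0.13 (adjusted p = 0.0317), 0.52 ± 0.13 (adjusted p = 0.00202) and 0.19 ± 0.13 (adjusted p = 0.229). The first was lost without AOM/DSS replicates 1 or 4 (adjusted p by limma 0.0933 and 0.0668) and without Control replicates 1, 2 or 5 (0.0541, 0.0739 and 0.0679). With an AOM/DSS mean under 1 FPKM, the direction of Slc38a11 against AOM/DSS was partly fixed by the filter. Of the 10 tested Slc38 members, 6 were called higher and 3 lower in AOM/DSS against Control, 2 higher and 5 lower in WMW-H against AOM/DSS, and 3 higher and 2 lower in WMW-H against Control. In that order the shares higher and lower were 60% and 30%, 20% and 50%, and 30% and 20%. Over all tested genes they were 45.5% and 20.6%, 25.9% and 40.9%, and 35.4% and 24.1%.

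Of the Slc43 carriers, Slc43a2, which lets large neutral amino acids leave the cell by facilitated diffusion, had 5.62, 5.61, 4.72, 5.14 and 5.56 FPKM in the WMW-H libraries, 7.05, 8.48, 9.101, 7.01 and 8.68 FPKM in the AOM/DSS libraries and 5.01, 5.59, 5.601, 4.59 and 5.27 FPKM in the Control libraries. AOM/DSS was above both other groups, which overlapped, and the limma differences were 0.54 ± 0.07 (adjusted p = 5.83e-06), -0.51 ± 0.07 (adjusted p = 1.07e-05) and 0.03 ± 0.07 (adjusted p = 0.766). Slc43a3, known as a purine nucleobase carrier, had 16.7, 16.98, 18.02, 18.9 and 19.9 FPKM in the WMW-H libraries, 13.3, 12.99, 17.3, 16.5 and 13.8 FPKM in the AOM/DSS libraries and 15.6, 14.9, 17.5, 16.9 and 11.9 FPKM in the Control libraries. The groups overlapped, and WMW-H had the highest mean. Slc43a3 differed by -0.05 ± 0.09 (adjusted p = 0.663), 0.28 ± 0.09 (adjusted p = 0.0144) and 0.23 ± 0.09 (adjusted p = 0.0426) by limma. The WMW-H against Control call was lost without WMW-H replicate 3, 4 or 5 (adjusted p by limma 0.0618, 0.0824 and 0.101) and without Control replicate 1, 2 or 5 (0.0575, 0.0738 and 0.128).

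Slc43a1, a relative of Slc43a2, had 1.96, 2.02, 3.32, 2.37 and 2.69 FPKM in the WMW-H libraries, 3.98, 3.56, 3.995, 3.21 and 2.33 FPKM in the AOM/DSS libraries and 3.23, 4.25, 2.23, 4.62 and 3.91 FPKM in the Control libraries. The groups overlapped, and the limma differences were -0.06 ± 0.15 (adjusted p = 0.724), -0.35 ± 0.15 (adjusted p = 0.0499) and -0.41 ± 0.15 (adjusted p = 0.0257). The WMW-H against AOM/DSS call was lost in 11 of 15 fits that each left out 1 library, with adjusted p-values by limma of 0.0515 to 0.116, and was kept only without WMW-H replicate 3, AOM/DSS replicate 5 or Control replicates 3 or 4. Against Control it was lost without WMW-H replicates 1 or 2 (0.0654 and 0.0625) and without Control replicates 2, 4 or 5 (0.064, 0.0734 and 0.0541).

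The Slc6 carriers of creatine, taurine, glycine and serotonin were not on the uptake list but belong to the same family as Slc6a14. Slc6a8, the creatine transporter, had 94.5, 90.5, 96.6, 95.5 and 99.4 FPKM in the WMW-H libraries, 102, 103, 104, 101 and 100.4 FPKM in the AOM/DSS libraries and 65.9, 64.4, 69.9, 68.3 and 66.7 FPKM in the Control libraries. Control was lowest throughout, and AOM/DSS was slightly above WMW-H in every library. Slc6a8 differed by 0.60 ± 0.03 (adjusted p = 3.76e-12), -0.10 ± 0.03 (adjusted p = 0.00452) and 0.50 ± 0.03 (adjusted p = 9.55e-11) by limma, and the WMW-H against AOM/DSS call was lost with size factors (-0.03, adjusted p = 0.36 by limma) and with quantile normalization (-0.04, adjusted p = 0.256 by limma). Slc6a6, the taurine transporter, had 47.1, 42.97, 52.7, 44.4 and 44.6 FPKM in the WMW-H libraries, 43.8, 37.1, 44.4, 42.8 and 38.7 FPKM in the AOM/DSS libraries and 46.9, 49.5, 50.2, 54.8 and 54.3 FPKM in the Control libraries. AOM/DSS was below Control in every library, and WMW-H overlapped both. Its limma differences were -0.30 ± 0.06 (adjusted p = 0.000342), 0.16 ± 0.06 (adjusted p = 0.0273) and -0.14 ± 0.06 (adjusted p = 0.0571), and the second was lost without WMW-H replicates 1 or 3 (adjusted p by limma 0.0521 and 0.0802) or AOM/DSS replicates 2 or 5 (0.0828 and 0.0698). The third was gained without WMW-H replicate 3 (0.00905), AOM/DSS replicate 2 (0.0444) or Control replicate 1 (0.0291, all adjusted p by limma).

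Slc6a9, the glycine transporter, had 9.42, 11.1, 10.5, 10.03 and 9.93 FPKM in the WMW-H libraries, 14.8, 14.4, 15.9, 15.5 and 13.99 FPKM in the AOM/DSS libraries and 11.5, 11.5, 10.7, 12.2 and 12.1 FPKM in the Control libraries. AOM/DSS was highest without overlap, and WMW-H and Control overlapped at their edges. Slc6a9 differed by 0.34 ± 0.05 (adjusted p = 1.32e-05), -0.51 ± 0.05 (adjusted p = 9.97e-08) and -0.17 ± 0.05 (adjusted p = 0.00594) by limma, and 27.8% of its exonic bases lie opposite Ccdc24 or B4galt2 in GENCODE M21. Slc6a4, the serotonin transporter, averaged 2.24 FPKM in WMW-H, 3.51 FPKM in AOM/DSS and 3.01 FPKM in Control and was called lower in WMW-H against AOM/DSS (-0.47, adjusted p = 0.0044, limma) and against Control (-0.32, adjusted p = 0.0421). It was not called in AOM/DSS against Control (0.15, adjusted p = 0.332, limma), except without AOM/DSS replicate 2 (adjusted p = 0.0479). The call against Control was lost in 7 of 15 fits without 1 library, with adjusted p-values by limma of 0.0549 to 0.108. These were the fits without WMW-H replicates 2, 3 or 5 or Control replicates 1, 2, 3 or 4.

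Of the 27 untested members, 24 were above 0 in at least 1 library, and the highest library value was 1.187 FPKM. Slc6a16, Slc6a21 and Slc7a12 were listed at 0 in all 15 libraries. In 8 untested members a group averaged at least 0.5 FPKM, among them Slc7a10 and Slc7a2 above. Slc7a14 averaged 0.648 FPKM in WMW-H, 0.527 FPKM in AOM/DSS and 1.03 FPKM in Control. Slc1a3, a glutamate carrier of glia, averaged 0.478 FPKM in WMW-H, 0.442 FPKM in AOM/DSS and 0.909 FPKM in Control. The betaine carrier Slc6a12 averaged 0.363 FPKM in WMW-H, 0.874 FPKM in AOM/DSS and 0.471 FPKM in Control. The related GABA carrier Slc6a11 averaged 0.574 FPKM in WMW-H, 0.546 FPKM in AOM/DSS and 0.545 FPKM in Control. Slc6a13, another GABA carrier, averaged 0.173 FPKM in WMW-H, 0.591 FPKM in AOM/DSS and 0.4396 FPKM in Control. Slc6a15, a neutral amino acid carrier of the brain, averaged 0.296 FPKM in WMW-H, 0.166 FPKM in AOM/DSS and 0.5396 FPKM in Control.

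Partner proteins and other amino acid or peptide carriers were described from a separate list, of which 16 of 22 genes were tested. In AOM/DSS against Control, 9 were called higher and 2 lower. In WMW-H against AOM/DSS 3 were higher and 11 lower, and in WMW-H against Control 4 higher and 6 lower, with median differences of 0.20, -0.34 and -0.03. In AOM/DSS against Control 56.2% were thus higher and 12.5% lower, against 45.5% and 20.6% of all tested genes. In WMW-H against AOM/DSS the shares were 18.8% and 68.8%, against 25.9% and 40.9%. In WMW-H against Control they were 25% and 37.5%, against 35.4% and 24.1%. Slc16a10, a carrier of aromatic amino acids, averaged 2.84 ± 0.644 FPKM in WMW-H, 4.49 ± 0.682 FPKM in AOM/DSS and 1.89 ± 0.317 FPKM in Control (SD, n = 5 each) and differed in those comparisons by 0.92 (adjusted p = 1.59e-06), -0.52 (adjusted p = 0.000577) and 0.40 (adjusted p = 0.00583) by limma. The lysosomal peptide carrier Slc15a3 averaged 3.31 FPKM in WMW-H, 5.15 FPKM in AOM/DSS and 2.27 FPKM in Control, with limma differences of 0.91 (adjusted p = 9.09e-08), -0.51 (adjusted p = 7.93e-05) and 0.40 (adjusted p = 0.000867). Slc15a4, its relative, averaged 6.62 FPKM in WMW-H, 10.7 FPKM in AOM/DSS and 8.098 FPKM in Control and was lower in WMW-H against AOM/DSS at -0.63 (adjusted p = 9.94e-06) by limma. Mfsd12, which brings cysteine into lysosomes and melanosomes, averaged 5.19 FPKM in WMW-H, 8.24 FPKM in AOM/DSS and 4.82 FPKM in Control and was lower there by limma at -0.58 (adjusted p = 2.84e-07). Slc15a2, a high-affinity peptide carrier, averaged 1.15 FPKM in WMW-H, 0.833 FPKM in AOM/DSS and 0.337 FPKM in Control and was higher in WMW-H against Control (0.69, adjusted p = 7.28e-07, limma), and the mitochondrial basic amino acid carrier Slc25a29, at 1.81 FPKM in WMW-H, 2.98 FPKM in AOM/DSS and 3.16 FPKM in Control, was lower (-0.57, adjusted p = 4.25e-05).

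Genes of lysosomal amino acid sensing, through which mTORC1 reads amino acid supply, were described from another list. Of 23 tested, 13 were called higher and 2 lower in AOM/DSS against Control, 6 higher and 10 lower in WMW-H against AOM/DSS, and 9 higher and 5 lower in WMW-H against Control, with medians of 0.16, -0.10 and -0.01, against 0.12, -0.07 and 0.05 over all genes. In WMW-H against AOM/DSS the shares, 26.1% higher and 43.5% lower, were near those of all genes (25.9% and 40.9%). In WMW-H against Control they were 39.1% and 21.7%, against 35.4% and 24.1%. In AOM/DSS against Control they were 56.5% and 8.7%, against 45.5% and 20.6%. Sesn2, a leucine sensor that restrains mTORC1 and is induced by stress, averaged 5.196 ± 0.324 FPKM in WMW-H, 8.37 ± 0.345 FPKM in AOM/DSS and 6.03 ± 0.546 FPKM in Control (SD, n = 5 each) and differed by 0.42 ± 0.06 (adjusted p = 5.03e-06), -0.60 ± 0.06 (adjusted p = 7.04e-08) and -0.18 ± 0.06 (adjusted p = 0.0106) by limma. Fnip1, a partner of folliculin, averaged 3.499 FPKM in WMW-H, 2.63 FPKM in AOM/DSS and 4.05 FPKM in Control, with limma differences of -0.47 (adjusted p = 3.18e-06), 0.31 (adjusted p = 0.000276) and -0.16 (adjusted p = 0.0293). The GTPase Rraga averaged 27.9 FPKM in WMW-H, 30.2 FPKM in AOM/DSS and 22.8 FPKM in Control and was higher in AOM/DSS against Control by limma (0.39, adjusted p = 6.58e-07). Depdc5, a subunit of a complex that holds mTORC1 off, averaged 7.98 FPKM in WMW-H, 12.4 FPKM in AOM/DSS and 9.72 FPKM in Control. Nprl2, another subunit, averaged 7.13 FPKM in WMW-H, 10.8 FPKM in AOM/DSS and 8.49 FPKM in Control. Both were lower in WMW-H against AOM/DSS, at -0.57 (adjusted p = 0.000458) and -0.53 (adjusted p = 6.69e-06) by limma. In WMW-H against Control the largest calls were Rragc, a partner GTPase of Rraga, at 0.30 (adjusted p = 9.44e-06), Rraga at 0.28 (adjusted p = 4.4e-05) and the leucyl-tRNA synthetase gene Lars at 0.23 (adjusted p = 0.000453) (limma).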

How the data were processed

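RNA from mouse colon was selected with oligo(dT) beads, built into NEBNext Ultra libraries and read on an Illumina NovaSeq (per the labels' protocols). Tools listed in the submitters' processing notes, without order or settings, are RSEM, HISAT2, StringTie 1.3.1, fastp 0.18.0 and Bowtie2 2.2.8, and the build, annotation and counting strand are not given in the sources used here. The values are FPKM (fragments per kilobase per depth unit) as deposited by the authors in 1 table. Library depth was read from the steps between low FPKM values of 3328 single-transcript genes. At the depths chosen to make these values most nearly whole, 90.9% of 4793 were whole fragments to within 0.1. At a depth not chosen in this way, chance gives 20.0%, so the first share does not test the depth.

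Groups came from the treatment labels. Genes that reached 1 FPKM in 5 or more libraries entered the test as log2(FPKM + 1) in limma 3.58.1 (R 4.3.3) with all 15 libraries in 1 fit, moderated with a trend, two-sided and adjusted by Benjamini-Hochberg over 12917 genes. In simulated data the test recovered all 100 genes changed 2-fold in each comparison. Of 100 genes changed 1.25-fold it recovered 58 in AOM/DSS versus Control (12797 genes), 63 in WMW-H versus AOM/DSS (12799 genes) and 74 in WMW-H versus Control (12791 genes), with 5, 9 and 7 false calls. The simulation changed few genes, as many up as down, with the same length and spread setting for every gene and no shift of all genes. It thus cannot tell how many calls in the measured data are false. Alternatives changed the pseudocount to 0.1, the filter, the scaling (TPM, size factors, quantiles, a total without pancreatic, gland and Paneth genes), the libraries in the fit and the replicate block, or left out each library. Members and lists were chosen with earlier results of these data known. Library values were given for the 2 most abundant members of each role and the 5 largest calls in each direction and comparison, and for some further members, and the 3 largest calls of the carrier and sensing lists were named in each comparison. Overlaps came from GENCODE M21 and promoters from RefSeq (GRCm38.p6), read in Python 3.11.15.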

Additional observations from a re-analysis of the deposited data

Results flagged for a closer look

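In 10 of 111 groups of 5 libraries, 1 library lay far from the other 4, a gap of more than 0.71 of the group's range, and chance gives about 1 in 20. Replicate 3 of WMW-H was the low library for 4 members. It had 72.14 FPKM of Slc6a14, against 84.5 to 89.14 FPKM in the other 4 WMW-H libraries. For Slc38a6 it had 80.5 FPKM, against 94.37 to 96.84 FPKM. For Slc38a2 it had 33.83 FPKM, against 36.64 to 37.36 FPKM, and for Slc7a1 8.734 FPKM, against 9.646 to 9.859 FPKM. Without this library the members called were 7 higher and 20 lower in WMW-H against AOM/DSS, and 8 higher and 17 lower in WMW-H against Control.

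Replicate 1 of WMW-H was high for Slc7a5, at 10.42 FPKM, against 9.087 to 9.435 FPKM in the others of its group. In AOM/DSS, replicate 3 was low for Slc38a3 (0.39 FPKM, others 0.552 to 0.594 FPKM) and high for Slc38a9 (1.473 FPKM, others 0.97 to 1.104 FPKM). Replicate 4 of AOM/DSS was high for Slc6a17 (2.654 FPKM, others 1.893 to 1.998 FPKM) and for Slc6a20a (2.208 FPKM, others 1.253 to 1.407 FPKM). In Control, replicate 3 was high for Slc6a20a, at 1.096 FPKM, against 0.546 to 0.692 FPKM.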

How the results depend on the processing

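Over 24 alternatives per comparison, the counts of all genes and of members called, both directions together, stayed within 1.5 times those reported. By direction, quantile normalization moved the counts of all genes in AOM/DSS against Control to 3795 higher and 4118 lower, against 5881 and 2658 as reported. Leaving out 1 library at a time gave 27 to 31 called members in AOM/DSS against Control, 26 to 28 in WMW-H against AOM/DSS and 23 to 28 in WMW-H against Control. Direction and call held under every alternative that tested the member for 23 of 30 called members in AOM/DSS against Control, 23 of 27 in WMW-H against AOM/DSS and 22 of 27 in WMW-H against Control. For the 37 members of the reported test, each lost or gained call is given beside that member's values or here. A minimum of 2 FPKM left 30 members tested. No filter left 61, with 22 higher and 16 lower in AOM/DSS against Control. In WMW-H these were 8 and 22 against AOM/DSS, and 10 and 21 against Control. Calls of members under the reported filter are not named. The labels do not say that replicate numbers pair the libraries. The correlations of same-numbered libraries' deviations were -0.0472 to 0.0298, which shows no strong pairing but cannot exclude a weak one. With the replicate block, Slc43a1 lost its calls in WMW-H against AOM/DSS (adjusted p = 0.0857, limma) and in WMW-H against Control (0.0511), and Slc6a6 gained one in WMW-H against Control (0.0446). The same call of Slc6a6 was gained with size factors (0.0158), quantiles (0.0268) and a total without pancreatic, gland and Paneth genes (0.011). Slc43a1 also lost its call in WMW-H against AOM/DSS without a filter (0.0823), with size factors (0.0982) and with quantiles (0.112). In that comparison Slc7a4 gained one with TPM (0.0247), that total (0.0269) and a minimum of 2 FPKM (0.0487). Without a filter, Slc6a4, Slc43a3 and Slc7a9 lost their calls in WMW-H against Control (adjusted p by limma 0.0688, 0.0686 and 0.0633). Slc43a3 also lost that call with size factors (0.103), quantiles (0.102) and that total (0.118). Slc6a6 lost its call in WMW-H against AOM/DSS with TPM (0.123) and with that total (0.106, all adjusted p by limma).

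Differences that changed sign were not called in the reported fit, apart from Slc38a10 in AOM/DSS against Control (-0.025 with size factors, -0.021 with quantiles). In that comparison the others were Slc1a4 (0.039 with TPM), Slc7a6 (-0.059 with size factors, -0.12 with quantiles) and Slc6a4 (-4e-04 with quantiles). In WMW-H against AOM/DSS they were Slc38a4 (0.015 with quantiles), Slc1a1 (-0.022 with TPM, -0.016 rescaled without pancreatic, gland and Paneth genes) and Slc7a1 (0.0402 with size factors, 0.081 with quantiles). In WMW-H against Control, size factors, quantiles and that rescaling gave -0.014, -0.067 and -0.017 for Slc38a3, -0.022, -3e-04 and -0.026 for Slc38a2, and -0.016, -0.051 and -0.02 for Slc43a2. Quantiles alone gave -0.011 for Slc7a8, -0.012 for Slc38a7 and -0.047 for Slc38a9. Leaving out 1 library gave a range that spanned 0 for Slc1a4 (-0.0199 to 0.0096), Slc43a1 (-0.19 to 0.034), Slc7a6 (-0.022 to 0.10) in AOM/DSS against Control. In WMW-H against AOM/DSS the same held for Slc1a1 (-0.008 to 0.055), Slc38a5 (-0.092 to 0.042), Slc7a1 (-0.037 to 0.0064), Slc7a9 (-0.019 to 0.18), and in WMW-H against Control for Slc36a4 (-0.036 to 0.012), Slc38a3 (-0.026 to 0.063), Slc38a7 (-0.0033 to 0.14), Slc38a9 (-0.028 to 0.13), Slc43a2 (-0.0099 to 0.064). The cause was not tested. Depth limits the lowest members most, and the 27 untested ones allow no statement on change.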
